A study of Mus musculus with 6 samples.

Results

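The peaks described here are hnRNP UL1 binding sites that the authors' annotation places in an intron other than the first of its host transcript, called later introns below. They were chosen from the 3 ChIP peak tables as the rows with an intron rank of 2 or more and a named nearest gene, which came to 4153 of 18624 complete peak rows. Of these, 1283 were among 8425 rows at 0 h of lipopolysaccharide (LPS), 2531 among 9046 rows at 4 h and 339 among 1153 rows at 10 h. A further 675 later-intron rows carried no gene name and were left out, 671 of them at 0 h.

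The study precipitated chromatin of RAW 264.7 cells, a mouse macrophage line derived from a virus-induced tumour, using an hnRNP UL1 antibody, followed by sequencing of the recovered DNA (ChIP-seq). The groups are untreated cells (0 h), cells given LPS at 100 ng/ml for 4 h and cells given the same dose for 10 h, with 1 ChIP library and 1 input library in each, and the labels name no genetic change in any of them. Only the 3 ChIP peak tables were analysed. With 1 library per group no test between times was possible, and there is no replicate error. Intervals below are exact 95% intervals on counts. They cover counting error only and treat peaks as independent, although neighbouring peaks cluster. The tables list no height, enrichment, q-value or depth, so the depth behind each is unknown and a peak is either listed or not.

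hnRNP UL1 is a nuclear RNA-binding protein of the hnRNP U family with roles in RNA processing and at sites of DNA damage. Proteins of this kind can meet chromatin through nascent transcripts, and introns make up most of the length of a nascent mammalian transcript. Later introns are transcribed after the promoter-proximal part of the gene has been passed, and their removal by the spliceosome largely takes place while the polymerase is still on the gene. LPS acts through Toll-like receptor 4 and, in macrophages, switches on inflammatory genes and, through secreted interferon, a further set of antiviral genes.

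The annotation gives a promoter label precedence up to 3 kb from a start, so every later-intron peak lay more than 3 kb from the start of its named gene; the smallest distance was 3002 bp, at 4 h. No genome sequence was used, and the bases under most of these peaks are not shown. RefSeq start windows of 300 bases (build GRCm38.p6) came within 150 bp of 6 later-intron peaks, at 5 RefSeq gene models, and 3 of the windows are printed because they lie in genes that held these peaks after LPS. Each is written 5′ to 3′ on the strand of its RefSeq model, and the 20 capitals mark the bases of the window nearest to the peak's point. The intron given is that of the peak, and no exon annotation was used to place the whole window in it. Each window is headed by the gene that holds the peak but is the start window of another RefSeq model. These models are Gm51779 for Dram1, Gm52893 for Met and Gm36043 for Cd274. Met and Cd274 themselves lie on the plus strand, opposite to their windows.

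Dram1 window, peak in intron 3 of 6, chr10:88336755-88337054, minus strand: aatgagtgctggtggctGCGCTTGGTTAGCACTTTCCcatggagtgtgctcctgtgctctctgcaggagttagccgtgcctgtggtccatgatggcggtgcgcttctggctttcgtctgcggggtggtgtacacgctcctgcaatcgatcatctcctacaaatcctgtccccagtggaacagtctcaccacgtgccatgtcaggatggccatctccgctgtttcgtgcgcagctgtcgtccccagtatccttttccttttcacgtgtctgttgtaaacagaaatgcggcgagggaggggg

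Met window, peak in intron 12 of 21, chr6:17541748-17542047, minus strand: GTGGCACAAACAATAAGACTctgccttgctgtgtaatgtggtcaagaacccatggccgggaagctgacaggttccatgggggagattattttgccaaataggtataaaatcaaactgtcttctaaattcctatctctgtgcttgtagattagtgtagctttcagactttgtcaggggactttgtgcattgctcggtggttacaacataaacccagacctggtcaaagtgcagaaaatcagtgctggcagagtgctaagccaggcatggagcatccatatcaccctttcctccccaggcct

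Cd274 window, peak in intron 6 of 6, chr19:29384902-29385201, minus strand: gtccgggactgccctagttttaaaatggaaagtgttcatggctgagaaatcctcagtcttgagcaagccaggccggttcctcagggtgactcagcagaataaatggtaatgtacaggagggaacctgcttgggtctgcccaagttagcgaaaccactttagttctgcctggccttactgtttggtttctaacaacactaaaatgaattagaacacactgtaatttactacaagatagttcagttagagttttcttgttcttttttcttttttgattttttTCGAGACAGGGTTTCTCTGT

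In Dram1, which encodes a lysosomal membrane protein involved in autophagy, a 10 h peak at position 88337027 fell inside the window. That window had a GC content of 56.7%, against a median of 52.7% over all 32851 RefSeq windows, and 16 CG pairs. In Met, the receptor for hepatocyte growth factor, a 4 h peak at 17542052 lay 5 bp outside the window. In Cd274, which encodes the T cell inhibitory ligand PD-L1, peaks at 4 h (29384788) and at 10 h (29384773) lay 114 and 129 bp outside the window and 15 bp from each other, and no 0 h peak was listed in the gene. The core of the PU.1 motif, GAGGAA on either strand, occurred once in the Met window and once in the Cd274 window, and 28.3% of all windows hold it. The AP-1 motif TGANTCA occurred once in the Cd274 window, and 7.81% of all windows hold it. The 2 matches in the Cd274 window share 0 bases, and a match is a description of letters, not a site.

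The 10 h table stopped at gene ID ENSMUSG00000022416 and the 4 h table at ENSMUSG00000027620, so times were compared only over nearest genes with IDs below these. The range common to all times named 2097 genes, and the longer range, for 4 h and 0 h, named 3420. In the common range later introns held 258 of 1310 named peaks at 0 h, or 19.7% (17.6 to 22.0), 1480 of 5289 at 4 h, or 28.0% (26.8 to 29.2), and 338 of 1145 at 10 h, or 29.5% (26.9 to 32.3). Both LPS times lay above 0 h, with intervals that did not overlap that of 0 h, and the intervals of the 2 LPS times overlapped each other. First introns, the nearest class in kind, held 12.6% of peaks at 0 h, 12.8% after 4 h and 12.8% after 10 h.

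Later-intron peaks were 5.74 times as many at 4 h as at 0 h (5.02 to 6.57), while first-intron peaks were 4.09 times as many (3.45 to 4.88) and peaks of all classes 4.04 times. The total number of peaks therefore differed between the tables by nearly as much, and with the depth unknown its part in these counts was not tested. As a ratio of shares of the named peaks, later introns were at 1.42 (1.24 to 1.63) for 4 h over 0 h and first introns at 1.01 (0.853 to 1.21). A rise in the share of a class goes with a fall elsewhere, and whether shares depend on the length of the list was not tested. Peaks 1 to 3 kb from a start had a share ratio of 1.31 (1.11 to 1.56), and peaks within 1 kb of a start 0.581 (0.520 to 0.650). At 10 h the total was below that at 0 h, at 1145 against 1310 peaks, yet later introns held 338 peaks against 258, a count ratio of 1.31 (1.11 to 1.55) and a share ratio of 1.50 (1.27 to 1.77). First introns had a count ratio of 0.891 (0.708 to 1.12) for 10 h over 0 h. Between 10 h and 4 h the later-intron share ratio was 1.05 (0.935 to 1.19). Over the longer range, 2531 later-intron peaks at 4 h against 489 at 0 h gave a count ratio of 5.18 (4.70 to 5.71) and a share ratio of 1.27 (1.15 to 1.40). A later-intron peak can lie in the first intron of another transcript of the gene, and the tables give 1 transcript per peak.

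**Figure D1:**
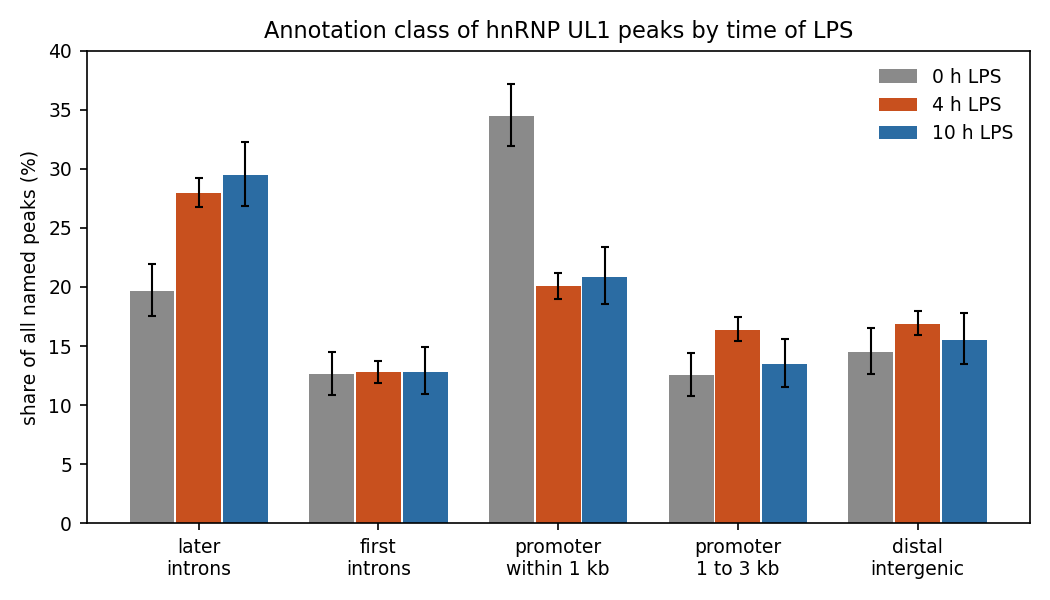
Share of named peaks in each annotation class (percent, vertical axis) at 0, 4 and 10 h of LPS in the common range of gene IDs, with exact 95% intervals and 1 library per time. Later introns held 19.7% of peaks at 0 h, 28.0% after 4 h and 29.5% after 10 h, while first introns stayed between 12.6% and 12.8%.

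Within introns the balance lay with the later ones at every time. They held 61.0% of intron peaks at 0 h (56.2 to 65.7), 68.7% at 4 h (66.7 to 70.6) and 69.7% at 10 h (65.4 to 73.8). When the common range was cut into 5 consecutive blocks of gene IDs, the later-intron share of intron peaks at 4 h was above that at 0 h in each block, while that at 10 h was below 0 h in 1 of them, at 61.0% against 62.9%. In the same blocks the count ratio of 4 h over 0 h lay between 4.47 and 7.36. The share of intron length that lies in later introns was not available for comparison.

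The rank of the intron and the size of the transcript were alike at the 3 times. The median peak lay in intron 4 at 0, 4 and 10 h, of a host transcript with a median of 12 introns at 0 h, 12 at 4 h and 10 at 10 h. Rank divided by intron number had medians of 0.44 at 0 h (0.40 to 0.52), 0.50 at 4 h (0.45 to 0.50) and 0.50 at 10 h (0.44 to 0.53), whose intervals overlap. Intron 2 alone held 26.7% of later-intron peaks at 0 h, 27.6% after 4 h and 27.8% after 10 h. The last intron of the transcript held 31 of 258 at 0 h (8.31% to 16.6%), 13.1% at 4 h (11.4 to 14.9) and 16.6% at 10 h (12.8 to 21.0), with overlapping intervals. Intron ranks 2, 3 to 5, 6 to 10 and over 10 had count ratios of 4 h over 0 h of 5.93, 6.08, 4.97 and 5.83, and each lies inside the intervals of the others.

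Placed on the RefSeq span of the host gene, from 0 at its start to 1 at its end, the peaks lay past the middle at each time. The median position was 0.595 at 0 h (n = 244), 0.579 at 4 h (n = 1363) and 0.588 at 10 h (n = 325), and the intervals overlapped. On the span of the nearest transcript that the tables list, which contains between 40.7% and 45.9% of the peaks, the medians were 0.409 at 0 h, 0.381 at 4 h and 0.399 at 10 h. The 2 spans put the medians on opposite sides of the middle, over different sets of peaks. The start of the listed transcript was closer to the peak, by over 1 kb, than the RefSeq start of the host in 84.0% of peaks at 0 h, 78.5% after 4 h and 79.1% after 10 h. The part of the RefSeq span from 0 to 0.2 held 6.15% of peaks at 0 h (3.48 to 9.94), 7.48% at 4 h (6.14 to 9.01) and 10.5% at 10 h (7.35 to 14.3). The rule leaves out first introns, and the annotation leaves out peaks within 3 kb of a start. Both take away the front of genes, so these positions and the share from 0 to 0.2 are partly set by the selection. No expected position was computed.

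In distance, the host gene's start was a median of 50.4 kb away at 0 h (44.3 to 57.4), 41.4 kb at 4 h (38.8 to 44.9) and 41.6 kb at 10 h (34.7 to 45.4). Peaks within 10 kb of the start numbered 145 at 4 h against 17 at 0 h, a ratio of 8.53 (5.15 to 15.0), and those 30 to 100 kb from it 515 at 4 h against 110 at 0 h, a ratio of 4.68 (3.80 to 5.81). Those 2 intervals overlap. Over the longer range the median distance was 50.3 kb at 0 h (45.8 to 55.8) and 40.7 kb at 4 h (38.7 to 42.9). These intervals did not overlap. The median length of the host gene there was 114 kb at 0 h and 83.3 kb at 4 h.

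The peaks were spread over many genes, most of which held 1. The genes with at least 1 numbered 175 at 0 h, 677 after 4 h and 216 after 10 h of LPS, and 75.4%, 56.9% and 73.1% of them held exactly 1. No gene held 10 or more at 0 h, 19 did at 4 h and 2 did at 10 h. Across times, 50 genes held a later-intron peak at all 3, 461 at 4 h only, 100 at 4 h and 10 h, 66 at 0 h and 4 h, 57 at 10 h only, 50 at 0 h only and 9 at 0 h and 10 h. A gene was called higher at a time when it held at least 3 later-intron peaks there and at least 3 times as many as at the other time. By that rule 141 of the 2097 genes, or 6.72%, were higher at 4 h than at 0 h, and 3, or 0.143%, were lower. The same rule applied to peaks of every class called 24% of genes higher and 0.62% lower. For 10 h over 0 h, 16 genes (0.763%) were higher and 12 (0.572%) lower by later-intron peaks, beside 2.1% higher and 2.96% lower by all classes. For 10 h over 4 h, 0% were higher and 123 genes, or 5.87%, were lower by later-intron peaks, beside 0.143% higher and 24.4% lower by all classes. Over the longer range 224 genes (6.55%) were higher at 4 h than at 0 h and 5 (0.146%) were lower, beside 25.4% higher and 0.731% lower by all classes.

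Tmcc3, which encodes a coiled-coil membrane protein of the endoplasmic reticulum, held the most later-intron peaks at 4 h in the common range (ENSMUSG00000020023, chr10:94311682-94590954, plus strand). Its counts were 0 at 0 h, 21 after 4 h and 5 after 10 h, and every one lay in intron 2 of 2, over 107.7 kb. The gene was thus listed with these peaks at both LPS times and with none before. St3gal1 (chr15:67102875-67176946, minus strand), a sialyltransferase that caps O-linked glycans, held 1 at 0 h, 19 after 4 h and 5 after 10 h, of which 1, 15 and 3 lay in intron 2 of 8. Parp8 (chr13:116850842-117026019, minus strand), of the ADP-ribosyltransferase family, held 0, 14 and 4 in the same order of times, with 12 of the 4 h peaks in intron 3 of 26. Pde4d (chr13:108654177-109955969, plus strand), a cAMP phosphodiesterase, held 0, 12 and 6. All 4 genes were highest at 4 h and held more at 10 h than at 0 h. First-intron peaks numbered 1, 15 and 1 in Tmcc3, 0, 4 and 2 in St3gal1 and 0, 2 and 0 in Pde4d. Parp8 had 0 at every time.

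Cpeb4 (ENSMUSG00000020300, chr11:31870104-31935635, plus strand), which binds polyadenylation elements in mRNAs and controls their translation, was the most marked gene at 10 h. It was the nearest gene of 4 later-intron peaks at 0 h, 18 after 4 h and 13 after 10 h. Intron 2 of 9 held 3, 15 and 11 of them within 16.9 kb. A further 5 peaks at 4 h and 2 at 10 h lay in Cpeb4 introns but were assigned to the neighbour 4930524B15Rik, whose start was nearer. Only 3 later-intron peaks of 10 h in the common range lay within 500 bp of later-intron peaks of both other times, at chromosome 11 positions 31897794, 31898006 and 31901896, and all 3 were in intron 2 of Cpeb4. Cpeb4 was also the nearest gene of 4 first-intron peaks at 0 h, 11 after 4 h and 5 after 10 h.

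Arid5b (ENSMUSG00000019947, chr10:68092523-68279355, minus strand), a DNA-binding cofactor of a histone demethylase, held 6 at 0 h, 17 after 4 h and 11 after 10 h, and Cpeb4 and Arid5b were the 2 genes with 10 or more at 10 h. With Snd1 (3, 11 and 3), an RNA-binding nuclease-domain protein, Mbnl2 (3, 10 and 3), a splicing regulator, and Dpys (7, 5 and 3), dihydropyrimidinase, these genes were among the 7 with at least 3 at every time. The others were Zfat (3, 10 and 4) and Asap1 (3, 4 and 3). The Dpys peaks show the limit of nearest-gene naming, since 6 of the 7 at 0 h lay in introns of its neighbour Lrp12, a membrane receptor. Likewise 7 peaks at 4 h assigned to Sla, an adaptor of antigen-receptor signalling, lay in introns of Tg, the thyroglobulin gene, in which Sla is nested. The named nearest gene was the host of the intron in 85.7% at 0 h, 87.0% at 4 h and 88.5% at 10 h of these peaks.

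Cd274 (ENSMUSG00000016496, chr19:29362107-29388095, plus strand), near whose last-intron peaks the printed window lies, held 0 later-intron peaks at 0 h, 16 after 4 h and 8 after 10 h. They lay in introns 2 to 6 of 6, with 8 at 4 h and 5 at 10 h in intron 3. All 8 peaks of 10 h lay within 500 bp of a 4 h peak. Per length of gene, Cd274 had the highest density at 4 h among genes with at least 5 at some time, at 6.16 later-intron peaks per 10 kb at 4 h. Cpeb4 had 3.51 per 10 kb at 4 h, counting peaks in its own introns. Met and Capza2, an actin-capping subunit, each held 0 at 0 h, 6 after 4 h and 5 after 10 h. Aoah, the enzyme that removes acyl chains from LPS, held 0, 9 and 5. Vps13d, a lipid-transfer protein, held 2, 9 and 5. In these genes the 10 h counts stood between those of 0 h and 4 h.

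**Figure D2:**
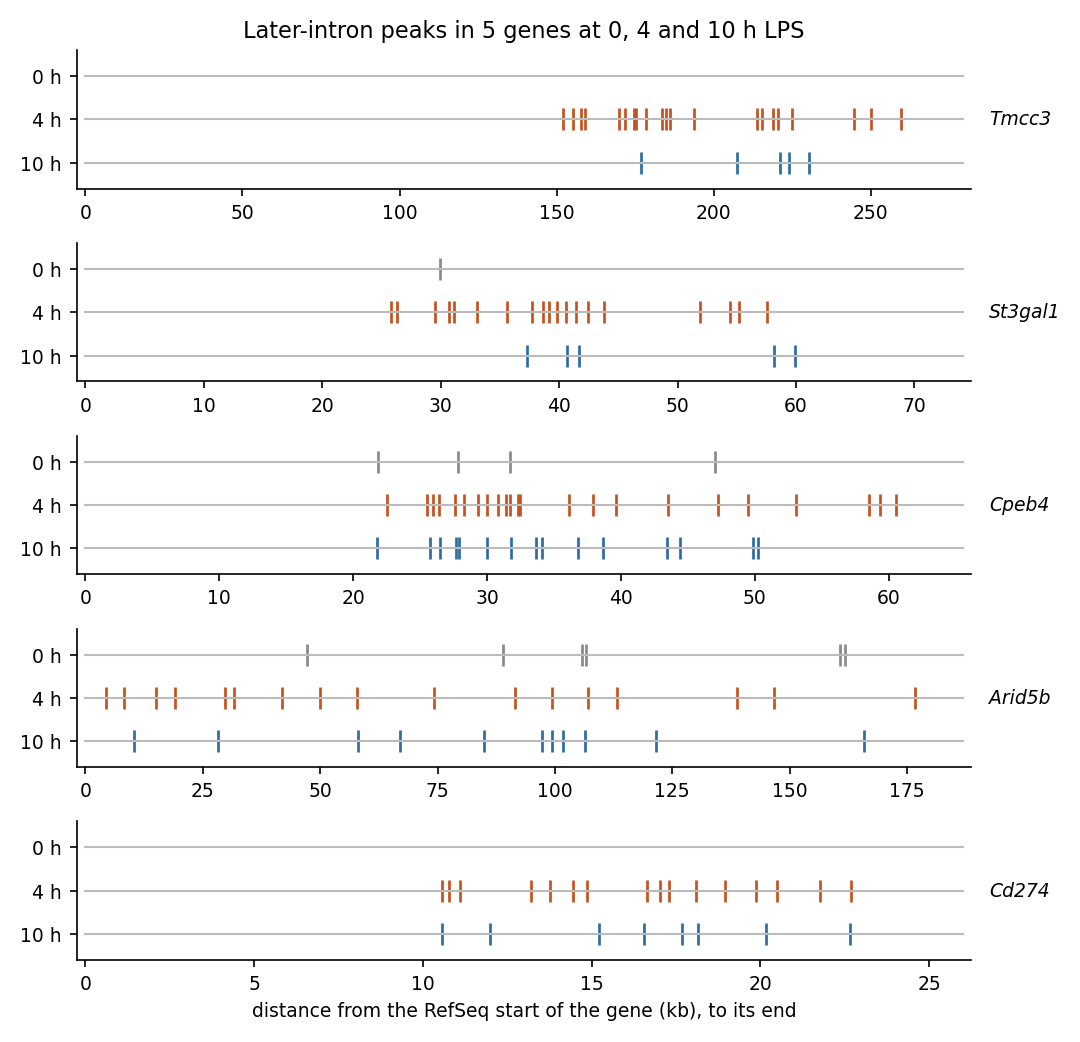
Later-intron peaks (ticks) along 5 genes, by distance in kb from the RefSeq start to the RefSeq end, at 0, 4 and 10 h of LPS. Tmcc3 and Cd274 show none at 0 h, and the Cpeb4 peaks of all 3 times crowd into the same part of the gene.

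Other genes held these peaks mainly at 4 h. Tns3, a focal adhesion protein, held 4 at 0 h, 15 after 4 h and 1 after 10 h, and Zmiz1, a transcription coactivator, held 6, 12 and 1. Abr held 1, 11 and 0. Cybb, the membrane subunit of the phagocyte NADPH oxidase, held 0, 11 and 0, and H2afy, a macro-domain histone variant, held 0, 11 and 1. None of these 5 genes held more than 1 later-intron peak at 10 h.

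Some genes held more later-intron peaks at 0 h than at 4 h. Slc29a3, a lysosomal nucleoside transporter, held 0 at 4 h against 4 at 0 h, and Gyg, the primer of glycogen synthesis, held 0 at 4 h against 3 at 0 h. Cblb, a ubiquitin ligase that restrains immune signalling, held 2 at 4 h against 6 at 0 h. Sipa1l2, of a family of Rap GTPase-activating proteins, held 2 at 4 h against 5 at 0 h. Pparg, a lipid-sensing nuclear receptor and 1 of 15 genes with a difference of at least 2, held 0 at 4 h against 2 at 0 h, which is under the 3 peaks a call needs. These counts are small, and peaks of any class near Slc29a3 numbered 2 at 4 h against 8 at 0 h.

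Between 10 h and 4 h the largest differences upward were of 2 peaks, in 9 genes. Of these, Cdh1 (E-cadherin), Ell2 (a transcription elongation factor), Plekha8 (a glycolipid-transfer protein), Ctnnb1 (beta-catenin) and Gnat2 (a retinal G protein subunit) each held 2 at 10 h against 0 at 4 h. No gene reached the call of at least 3 peaks in that direction.

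Over the longer range, which has no 10 h values, 2 patterns stood side by side. Slco3a1 (ENSMUSG00000025790, chr7:74275418-74554780, minus strand), an organic anion transporter, held 31 later-intron peaks at 4 h against 0 at 0 h, with 18 of the 31 in intron 2 of 10. Cflar (chr1:58711311-58758884, plus strand), an inhibitor of caspase-8 activation, held 25 at 4 h against 1 at 0 h, with 10 in intron 8 of 9. Pik3ap1, an adaptor between Toll-like receptors and phosphoinositide 3-kinase, held 13 at 4 h against 0 at 0 h, and Rbms1, an RNA-binding protein, also held 13 at 4 h against 0 at 0 h. By contrast Zeb2 (ENSMUSG00000026872, chr2:44983512-45117442, minus strand), a zinc finger repressor that maintains tissue macrophage identity, held 29 at 4 h against 27 at 0 h. Intron 3 of 10 alone held 26 of those at 4 h and 23 of those at 0 h. Rgl1 (chr1:152516762-152766308, minus strand), an exchange factor for Ral GTPases, held 31 at 4 h against 24 at 0 h. Runx1, a transcription factor of blood cells, held 18 at 4 h against 7 at 0 h. First-intron peaks numbered 22 at 4 h against 0 at 0 h in Slco3a1, 7 against 2 in Rbms1 and 2 against 0 in Pik3ap1. Cflar, Zeb2, Rgl1 and Runx1 had 0 at both times.

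Within 500 bp of a 0 h peak lay 10 of the 29 Zeb2 peaks of 4 h and 7 of the 31 Rgl1 peaks of 4 h. These 2 genes thus held similar numbers of peaks at both times, at positions of which most were over 500 bp apart. They had 27 and 24 peaks at 0 h, where genes with any averaged 1.61 later-intron peaks in this range. Zeb2 was as dense at 0 h, with 2.02 peaks per 10 kb of gene, as at 4 h, with 2.17.

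**Figure D3:**
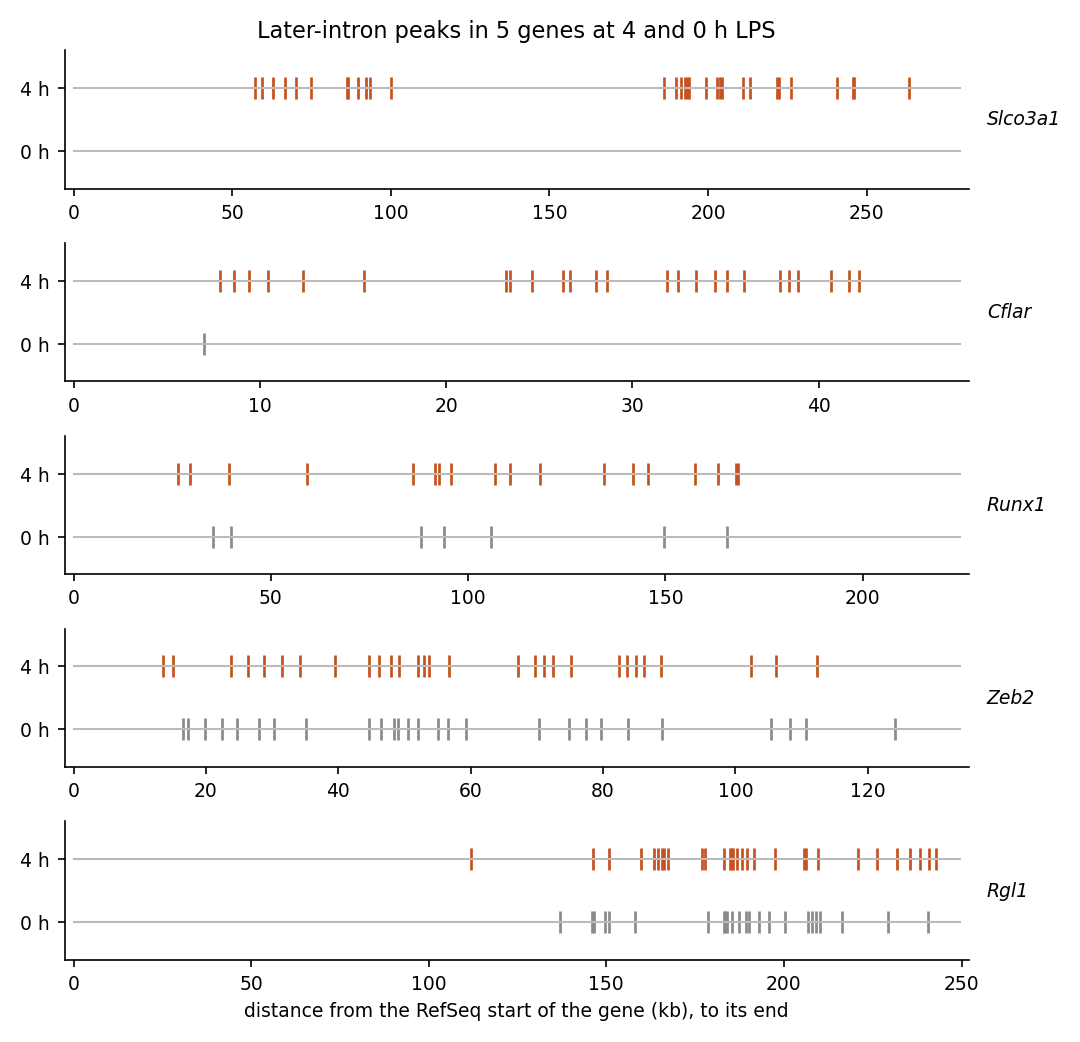
Later-intron peaks (ticks) along 5 genes of the longer ID range, by distance in kb from the RefSeq start to the RefSeq end, with 4 h of LPS above 0 h in each panel. Slco3a1 and Cflar hold 31 and 25 peaks at 4 h against 0 and 1 at 0 h, while Zeb2 and Rgl1 are filled at both times.

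The whole 0 h table, which covers gene IDs beyond both ranges, had no counterpart at the LPS times there. After Zeb2 and Rgl1, the genes with the most later-intron peaks in it were Lrmda (16), a melanocyte differentiation gene, Fnip2 (12), a folliculin-interacting protein of the lysosomal nutrient-sensing pathway, and Atp6v0d2 (10), a subunit of the vacuolar proton pump. Dtnbp1 (9), a subunit of a lysosome-related organelle complex, Rftn1 (8), a lipid-raft protein, and Lhfpl2 (8) followed. Of the Atp6v0d2 peaks, 9 lay in intron 2 of 7 within 14.6 kb, and all 8 of Lhfpl2 lay in intron 3 of 3 within 11.9 kb. Fnip2 and Atp6v0d2 are members of the lysosome and endocytosis list, whose counts in the common range are given below.

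Most introns with a later-intron peak held only 1, at 193 of 218 at 0 h, 828 of 1051 at 4 h and 239 of 276 at 10 h. In introns that held more, neighbouring peaks lay a few kb apart at the median. At 0 h 11 introns held at least 3 peaks, at 4 h 77 did and at 10 h 9 did. The median gap between neighbouring peaks of an intron was 4.74 kb at 0 h (40 gaps), 2.79 kb at 4 h (429 gaps) and 2.77 kb at 10 h (62 gaps). Another peak of any class, not only of later introns, lay within 5 kb of 24.0% of later-intron peaks at 0 h (18.9 to 29.7). At 4 h this share was 46.8% (44.2 to 49.3) and at 10 h 30.5% (25.6 to 35.7), and the 4 h table holds the most peaks.

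Few later-intron peaks sat at the position of a peak of another time. Of the 10 h peaks, 9 of 338, or 2.66% (1.22 to 4.99), lay within 500 bp of any 0 h peak, against 12.9% of first-intron peaks (7.96 to 19.4) and 14.2% of peaks within 1 kb of a start (10.1 to 19.3). Within 500 bp of a 4 h peak lay 17.2% of the 10 h later-intron peaks (13.3 to 21.6), against 27.2% of first-intron peaks (20.2 to 35.2). Peaks 1 to 3 kb from a start had 13.6% (8.64 to 20.1) and distal intergenic peaks 11.8% (7.45 to 17.5). The interval of later introns overlapped each of these 3. It did not overlap that of peaks within 1 kb of a start, at 28.9% (23.2 to 35.1). Of the 4 h later-intron peaks, 2.16% lay near a 0 h peak (1.48 to 3.04), against 12.1% of those within 1 kb of a start (10.2 to 14.2). First-intron peaks had 4.30% (2.90 to 6.11), peaks 1 to 3 kb from a start 3.23% (2.16 to 4.63) and distal intergenic peaks 3.24% (2.18 to 4.63). The intervals of these last 3 classes overlap that of later introns. The 4 h list, with 5289 peaks, is about 4.04 times as long as the 0 h list, so the shares of 10 h peaks near each are not on an equal footing. The 58 peaks of 10 h near a 4 h peak came from 38 genes, with 8 in Cd274, 7 in Cpeb4 and 3 in St3gal1. The 9 near a 0 h peak came from 6 genes, with 4 in Cpeb4 and 1 each in Sipa1l2, Bcr, Arid5b, Itgb3 and Dpys. The distal intergenic class had 6.18% of its 10 h peaks near a 0 h peak (3.12 to 10.8), and the class 1 to 3 kb from a start 5.19% (2.27 to 9.98). Both intervals overlap that of later introns.

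**Figure D4:**
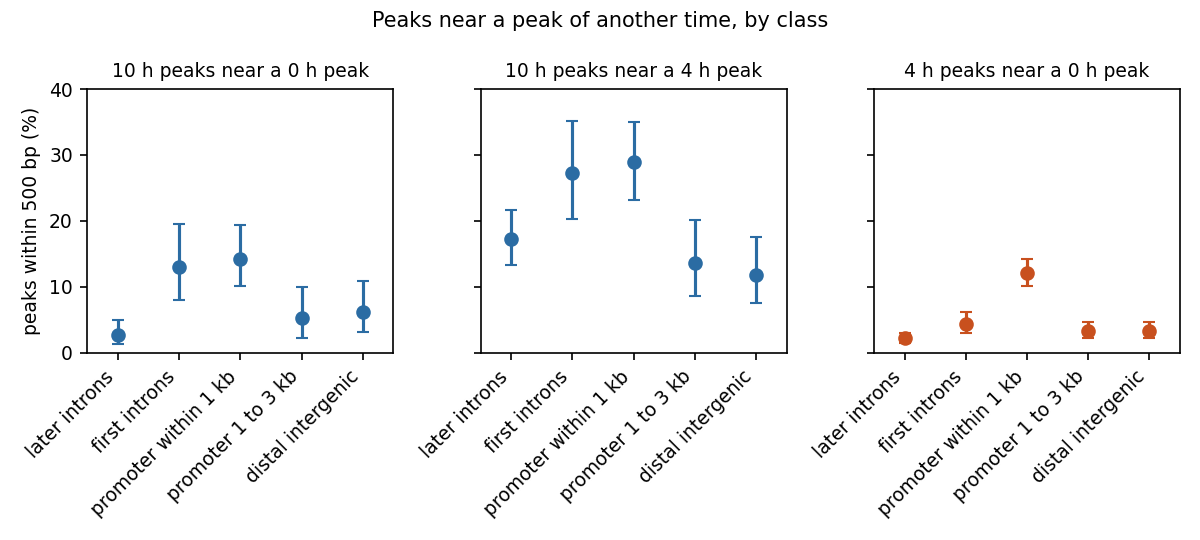
Share of peaks of one time (percent, vertical axis) that lie within 500 bp of a peak of another time, by annotation class, with exact 95% intervals, for 10 h against 0 h, 10 h against 4 h and 4 h against 0 h. Later introns lie at 2.66% in the left panel, below the 12.9% of first introns and the 14.2% of promoters within 1 kb. Their interval there overlaps those of peaks 1 to 3 kb from a start (5.19%) and of distal intergenic peaks (6.18%).

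Genes with later-intron peaks had promoter peaks at 4 h about as often as the other named genes did, some of which had no 4 h peak. Of the 677 such genes at 4 h, 39.1% (35.4 to 42.9) also had a 4 h peak within 1 kb of a start, against 40.4% (37.8 to 43.0) of the other 1420 named genes. At 0 h 27.4% (21.0 to 34.7) of the 175 genes had a promoter peak, against 18.7% (17.0 to 20.5) of the others, and at 10 h 16.2% (11.6 to 21.8) of 216, against 10.0% (8.73 to 11.5), and at 0 h and 10 h the intervals of both groups did not overlap. The genes with a later-intron peak are compared with genes that were named by a peak of some class at some time, since genes with no row were not counted. The first group has a peak at the time by definition, and the other genes need not. Of the other genes, 614 had any peak at 0 h, 1153 at 4 h and 462 at 10 h. Promoter peaks were held by 360, 573 and 189 of these, a larger share at each time than in genes with later-intron peaks. Those genes have a peak outside later introns by definition, so neither comparison is on an equal footing.

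Lists of genes by function are described by their counts beside those of all named genes, of which 8.35% held a later-intron peak at 0 h, 32.3% at 4 h and 10.3% at 10 h in the common range. Over the 3420 genes named in the longer range these shares were 34.1% at 4 h and 8.86% at 0 h. Of 18 named LPS-induced genes, 0 held one at 0 h, 8 after 4 h and 4 after 10 h, with 0, 39 and 17 peaks. They include Cd274, Aoah, Cd83 (a surface marker of activated antigen-presenting cells, with 0, 4 and 2 peaks) and Acod1 (which makes itaconate, with 0, 3 and 2 peaks). Nos2 and Il12b held 1 each, at 4 h only. In the longer range 12 of 28 named LPS-induced genes held 69 later-intron peaks at 4 h, against 1 gene with 1 peak at 0 h, which was Cflar. That is 42.9% of the list at 4 h and 3.57% at 0 h, beside 34.1% and 8.86% of all genes in that range.

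Of 7 named interferon-response genes, 0 held a later-intron peak at 0 h, 4 after 4 h and 2 after 10 h. In the longer range Mx2, an antiviral dynamin-like GTPase, held 11 at 4 h and 0 at 0 h. Ifih1, a cytoplasmic sensor of viral RNA, held 7 at 4 h and 0 at 0 h. Rsad2, the antiviral enzyme viperin, held 0 at 0 h, 6 after 4 h and 0 after 10 h, and Trim25, a ubiquitin ligase of RNA sensing, held 0, 6 and 1. These 4 genes held later-intron peaks after LPS and none before.

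Of 12 named genes of TLR4, NF-kB and MAPK signalling, 1 held a later-intron peak at 0 h, 8 after 4 h and 3 after 10 h, with 1, 11 and 3 peaks. At 4 h most of the 8 held 1, and Tbk1, a kinase upstream of interferon production, held 0, 3 and 1. In the longer range Map4k4, a kinase upstream of MAPK signalling, held 7 at 4 h against 0 at 0 h, and Traf6, the ubiquitin ligase downstream of Toll-like receptors, held 4 at 4 h against 0 at 0 h.

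The lists of cell-structure and regulatory genes held these peaks before LPS as well. Of 13 phosphoinositide and adhesion genes, 4 held one at 0 h, 8 after 4 h and 5 after 10 h, with Lcp2, an adaptor of immune receptors, at 0, 8 and 3. Of 13 chromatin and transcription coregulators, 6 held one at 0 h, 7 after 4 h and 5 after 10 h, and Arid5b and Zmiz1 gave 29 of their 42 peaks at 4 h. Of 17 RNA-binding and splicing genes, 3 held one at 0 h, 7 after 4 h and 4 after 10 h, with 11, 43 and 18 peaks, and all 11 at 0 h lay at Cpeb4, Celf2 (a splicing regulator, with 4, 9 and 1) and Mbnl2.

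Of 18 lysosome and endocytosis genes, 7 held a later-intron peak at 0 h, 9 after 4 h and 3 after 10 h, with 12, 15 and 5 peaks. Among the lists with at least 5 named genes described here, those with 0 genes at 0 h were the LPS-induced and the interferon-response ones, and with 18 and 7 members these counts are small.

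**Figure D5:**
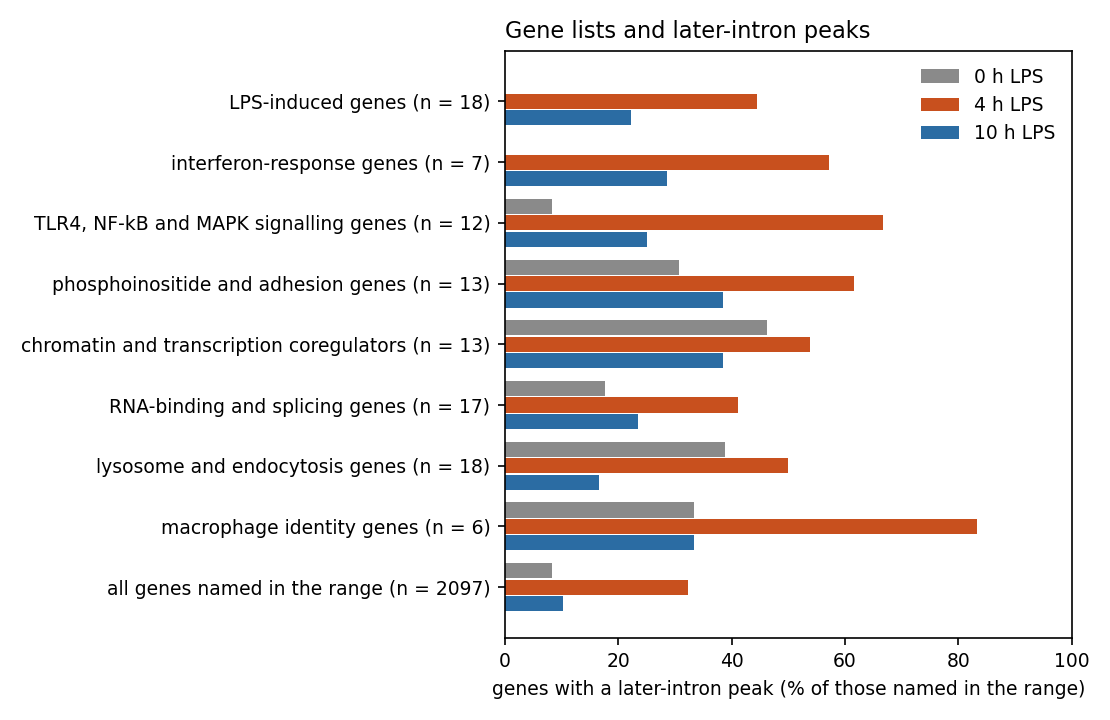
Share of the genes of each list named in the common range that held at least 1 later-intron peak (percent, horizontal axis) at 0, 4 and 10 h of LPS, with the share over all 2097 named genes at the bottom. The 8 lists with at least 5 named genes that are described here are drawn. The LPS-induced and interferon-response lists have no bar at 0 h.

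The labelled cell type was read against marker genes as far as peaks allow, since a peak is no measure of expression. Of 6 named macrophage genes, 2 held a later-intron peak at 0 h, 5 after 4 h and 2 after 10 h, including Cybb, Ctsb (1, 3 and 2) and Fcgr1 (1, 2 and 1). Of the Ctsb peaks, 2 at 4 h and 1 at 10 h lay in introns of Fdft1. Of 10 macrophage genes named in the longer range, 8 held one at 4 h against 3 at 0 h, beside 34.1% at 4 h and 8.86% at 0 h of all genes in that range. The 2 neuronal genes named in the longer range, Dlgap1 and Rbfox3, held 1 each at 4 h and 0 at 0 h. That is 100% of them at 4 h, beside 80% of the macrophage genes, so the shares do not set the macrophage list apart. The 2 named T and B cell genes held 0 at 4 h and 0 at 0 h, and no hepatocyte gene was named in the range.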

How the data were processed

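RAW 264.7 chromatin of 0, 4 and 10 h of LPS was precipitated with an hnRNP UL1 antibody after enzymatic digestion with a commercial kit, per the labels' protocols. The submitters' processing notes name MACS2 2.1.0, BWA 0.7.12, CASAVA 1.8 and the build GRCm38 (mm10). Their settings and the use of the input are not given in the sources used here. Per the file headers, the authors deposited 1 peak table per ChIP sample, with a point 2 bp wide, an annotation class, the nearest gene and its span, and no score. Replicate libraries were not analysed here. The 4 h table broke off in its last row, which was left out.

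Later introns were rows whose annotation starts with Intron and is not intron 1 of its transcript. Gene spans and sequences come from RefSeq GRCm38.p6, matched by symbol to 99.4% of names at 0 h, 99.6% at 4 h and 100% at 10 h. Strands come from the tables. Shares have exact Clopper-Pearson intervals, ratios exact intervals given the summed counts, and medians binomial intervals, all at 95%. Named genes are the 10 with the most later-intron peaks at each time, the 10 with the largest difference 4 h minus 0 h and the 5 with the largest 0 h minus 4 h in the longer range, the 5 with the largest 10 h minus 4 h, the 5 highest at their lowest time, the 10 highest in the whole 0 h table and up to 4 members of each of 12 lists, of which 1 list and 1 gene are not reported here. Others named were chosen after their values were seen. The members and lists were chosen with earlier results of these data known. Counting steps were tested on simulated tables. Python 3.11.15, pandas 2.3.3, numpy 2.4.6, scipy 1.17.1 and matplotlib 3.10.9 were used.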

Additional observations from a re-analysis of the deposited data

How the results depend on the processing

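Of 76 alternative values, 55 stayed inside the interval of the reported value or, for counts of genes, within 1.5 times it, and no ratio of shares left its interval under any alternative run. The later-intron share at 0 h was 22.1% in the longer range and 22.6% in the whole table, above the interval of the common range, and its share of intron peaks at 4 h was 70.9% when peaks within 5 kb were merged. The count ratio of 4 h over 0 h was 4.52 after that merge and 3.87 for genes in place of peaks. The median position on the RefSeq span was 0.595 at 0 h, 0.579 at 4 h and 0.588 at 10 h, on the other side of the middle from the reported span. With 200 bp in place of 500 bp, 1.01% of 4 h peaks lay near a 0 h peak, 9.76% of 10 h peaks near a 4 h peak and 5.43% of 0 h peaks near a 4 h peak, and with 1000 bp 3.92%, 24.6% and 18.2%, by construction. A minimum of 5 peaks called 52 genes higher and 0 lower for 4 h over 0 h, 8 higher and 2 lower for 10 h over 0 h and 46 lower for 10 h over 4 h. The longer range called 224 higher and 5 lower for 4 h over 0 h, among more genes. Intron numbering by RefSeq transcripts was not run, as no exon annotation was used, and no stricter peak threshold could be set without scores. No paired analysis was possible because each time has 1 ChIP library. Depth is unknown, so a peak missing from a list may have been missed.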

Other observations

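The 671 later-intron rows of 0 h without a gene name were left out of every count above. Their nearest genes carry ID numbers of at least 44522, beyond the ends of the other tables. For 403 of them, or 60.1%, the host of the intron is named elsewhere in the tables. The hosts with the most of these rows were Lrmda (25), Arid1b (12), a subunit of a chromatin-remodelling complex, Snx29 (8) and Zmiz1 (8). Later introns held 69.3% of the 968 intron rows without a gene name at 0 h, against 65.5% of the 1958 with one.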
